A study of Homo sapiens with 6 samples.

Results

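Keratins are the intermediate filament proteins of epithelial cells, and vimentin is the intermediate filament protein typical of mesenchymal cells. The genes described here are those with an array probe set annotated with exactly 1 symbol that is a keratin from KRT1 to KRT86, without keratin-associated proteins and pseudogenes, together with VIM. This gave 47 keratin genes and VIM, 48 of the 18417 genes that the array resolved. Of the 54 human keratin genes that were listed, 7 were not analysed here, namely KRT6A, KRT6B, KRT6C, KRT17, KRT81, KRT82 and KRT86.

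The study asked how gene expression differs once SNAI1, a zinc finger repressor that drives epithelial-mesenchymal transition (EMT), is stably expressed in MCF10A cells, an immortalized line of human mammary epithelium that forms no tumors. Total RNA was hybridized to 6 Affymetrix HuGene arrays, 3 of MCF10A-SNAI1 cells and 3 of untransfected MCF10A cells, labelled as biological replicates. MCF10A-SNAI1 cells had been transfected with a plasmid that drives Flag-tagged SNAI1 from a chicken beta-actin promoter with a CMV enhancer, and were then selected with puromycin. Both lines were grown in mammary epithelial medium with cholera toxin. The sources used here do not say whether MCF10A-SNAI1 is 1 clone or a pool. The control line carried no empty plasmid, so SNAI1, plasmid, drug selection and the lines' separate histories cannot be told apart.

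A keratin filament is built from pairs of 1 acidic type I and 1 basic type II chain. Type I genes lie together on chromosome 17 and type II genes on chromosome 12, where the type I gene KRT18 sits at the end of the row. Basal cells of stratified and glandular epithelia carry KRT5 with KRT14, simple and luminal cells carry KRT8 with KRT18 and often KRT7 and KRT19, and suprabasal layers, inner root sheath and hair carry further pairs. Vimentin, a type III protein, forms filaments with itself and is widely used as a marker of EMT.

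Values are the deposited log2 expression values, and log2 fold changes are those of MCF10A-SNAI1 over MCF10A. A gene was called when limma, fitted over all 33297 probe sets, gave a Benjamini-Hochberg adjusted p below 0.01 with a difference of more than 2-fold. Levels of different probe sets depend on their probes, so a fold change compares a gene only with itself in the other line. Places among all probe sets and the median of all values are given as a rough guide. In RNA of whole cultures, fewer cells that carry a keratin and less of its RNA per cell cannot be told apart.

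As a check of the labels, SNAI1 lay at 10.50, 10.53 and 10.50 in MCF10A-SNAI1 cells, against 5.80, 5.73 and 5.77 in MCF10A cells. Over all probe sets, Pearson's r between arrays of the same line was 0.995 to 0.996. Of 3 epithelial markers analysed, EPCAM and CDH1 were called lower. GRHL2 was not called and lay under the median of all values in both lines. For these and the marker lists below, the shares over all genes were 2.54% called lower and 3.1% higher. CDH1, the gene for E-cadherin, averaged 5.07 in MCF10A-SNAI1 cells and 9.05 in MCF10A cells, so this marker of the labelled cell type was bright in MCF10A cells and under the median of all values in MCF10A-SNAI1 cells. Of 8 fibroblast markers, 4 were called higher, namely DCN, COL3A1, COL1A1 and LUM, with log2 fold changes of 8.26, 5.14, 2.57 and 1.53. COL1A2, PDGFRA, PDGFRB and THY1 were not called, at 0.25, 0.27, 0.40 and 0.076. LUM, PDGFRA and THY1 lay under the median of all values in both lines. The mean level over the fibroblast list was 7.53 to 7.63 in MCF10A-SNAI1 arrays and 5.25 to 5.29 in MCF10A arrays. Of 6 luminal markers, GATA3 and MUC1 were called higher, with a list mean of 6.17 to 6.30 in MCF10A-SNAI1 arrays and 5.54 to 5.59 in MCF10A arrays. The other 4, ESR1, PGR, ELF5 and FOXA1, were not called and lay under the median of all values in both lines. Their log2 fold changes were 0.026, 0.012, -0.010 and -0.22, so the list mean rose through GATA3 and MUC1. All 5 endothelial markers lay under the median of all values in both lines. Of 5 leukocyte markers analysed, CD14 was called higher at 1.03 (limma adjusted p = 0.0032) and CD68 differed by 0.99, just under 2-fold (limma adjusted p = 8.86e-05), while PTPRC, the gene for the pan-leukocyte protein CD45, averaged 3.22 in MCF10A-SNAI1 cells and 3.23 in MCF10A cells, among the dimmest probe sets. None of 4 melanocyte markers was called. The part of these marker changes in the keratin results was not tested.

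Most of the keratins analysed were not called. KRT5, KRT14, KRT15 and KRT16 were called lower, KRT34 was called higher, and 42 of the 47 keratins were not called. Over all genes 2.54% were called lower and 3.1% higher. The share called lower was thus larger among keratins, 4 of 47, while 1 of 47 was called higher. VIM was not called, with an interval that lay well within 2-fold. Of the keratins, 30 had a mean under the median of all values, 6.05, in both lines, beside 6802 of all 18417 genes. None of these 30 was called, and all 5 called keratins were among the 17 above that median in at least 1 line. Calls over all genes were mostly of such genes as well. A fit without probe sets under the median in both lines called 448 of 11615 genes lower and 524 higher. The full fit called 467 of 18417 genes lower and 571 higher. The lack of calls among the 30 dim keratins was thus not shown to be particular to keratins. The median log2 fold change of the 47 keratins was -0.092, beside -0.013 over all genes. Only 3 arrays per line limited the precision.

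**Figure D1:**
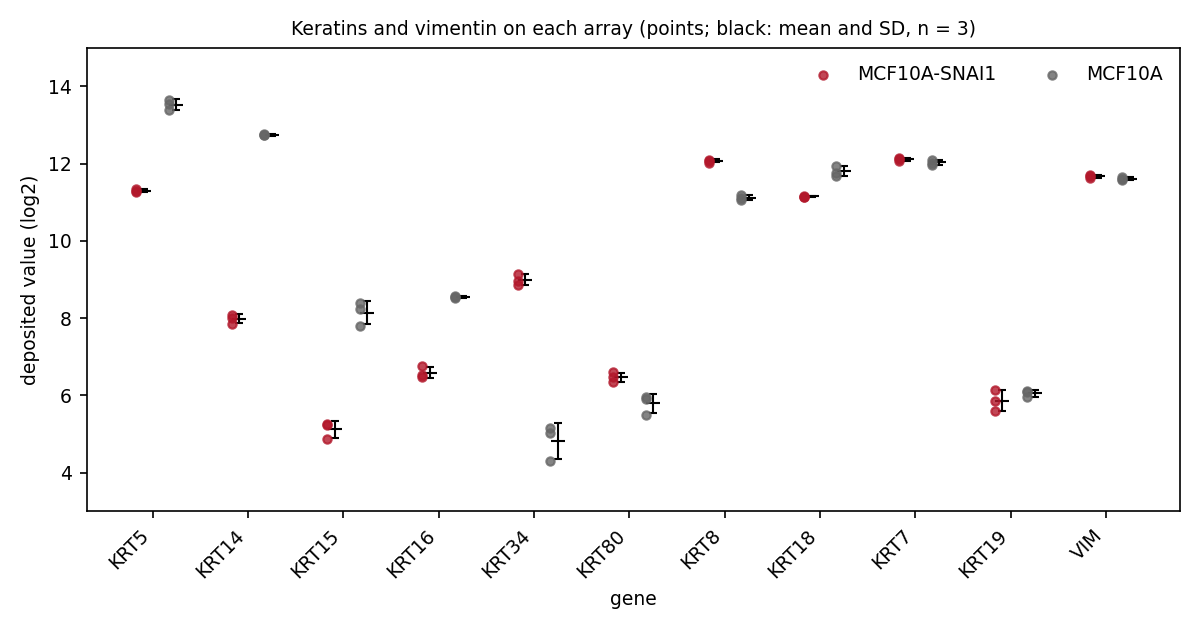
Deposited log2 values of 10 keratins and VIM on each of the 3 MCF10A-SNAI1 arrays (red) and 3 MCF10A arrays (grey), with the mean and SD beside the points in black. KRT5, KRT14, KRT15 and KRT16 lie lower and KRT34 higher in MCF10A-SNAI1 cells with a wide gap, whereas VIM and KRT7 lie at nearly the same level in both lines. Levels compare within a gene only.

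The 3 basal keratins analysed here were all called lower, beside 2.54% of all genes. KRT14, the type I chain of the basal pair, lay at 8.02, 7.85 and 8.08 in MCF10A-SNAI1 cells, against 12.76, 12.73 and 12.73 in MCF10A cells. Replicates of either line lay close together, while the lines stood 4.76 apart. This is a 27.1-fold difference (limma log2 fold change -4.76 ± 0.075 (SE), adjusted p = 1.69e-07). KRT15, a type I keratin of basal cells and of hair follicle stem cells, lay at 5.26, 5.24 and 4.86 in MCF10A-SNAI1 cells, against 7.80, 8.24 and 8.40 in MCF10A cells. All 3 lower values were under the median of all probe sets, and the measured difference was 8.14-fold (limma log2 fold change -3.03 ± 0.18 (SE), adjusted p = 3.34e-05). Where the MCF10A-SNAI1 level of KRT15 is background, this fold is a minimum.

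Other markers of mammary basal cells moved with these keratins. Of the 4 analysed besides keratins, 3 were called lower: ITGA6, an integrin chain of hemidesmosomes, at -5.89, CDH3, the gene for P-cadherin, at -4.43, and ITGB4, the integrin partner of ITGA6, at -2.09. EGFR was not called at -0.13 (adjusted p = 0.219 from limma). Among all genes 2.54% were called lower. The mean level over the list was 7.75 to 7.79 in MCF10A-SNAI1 arrays and 10.86 to 10.94 in MCF10A arrays, and its part in the keratin result was not tested.

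KRT5, the type II partner of KRT14, was still a bright gene after its fall. It lay at 11.27, 11.30 and 11.33 in MCF10A-SNAI1 cells, against 13.38, 13.55 and 13.66 in MCF10A cells. The arrays of the lines did not overlap, and the difference was 4.69-fold (limma log2 fold change -2.23 ± 0.082 (SE), adjusted p = 4.04e-06). Its level lay above that of 97.0% of all probe sets in MCF10A-SNAI1 cells and of 99.9% in MCF10A cells. The table holds no saturation calls for such bright probe sets.

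The bases before the KRT5 start are shown because, of the 4 keratins called lower, KRT5 alone is in the RefSeq promoter table used here. The 200 bases upstream of the start (GRCh38.p14, chr12:52520395-52520594, minus strand) contain CAGGTG, the E-box that Snail proteins are known to bind, in capitals, with its first base 130 bases before the start.

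KRT5: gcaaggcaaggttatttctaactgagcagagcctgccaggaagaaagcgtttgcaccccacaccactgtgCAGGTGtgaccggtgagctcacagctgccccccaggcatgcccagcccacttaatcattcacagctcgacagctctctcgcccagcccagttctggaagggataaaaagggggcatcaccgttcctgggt

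Windows of 300 bases, 250 before and 50 after the start, were at hand for 34 of the 48 genes. CAGGTG, searched on both strands, was in 8 of them (23.5%) and in 20.6% of 27305 promoters overall. The other 7 genes with it, KRT20, KRT26, KRT33B, KRT39, KRT71, KRT75 and KRT79, were not called. KRT8, KRT34 and VIM had no CAGGTG in this window. A match describes the letters and was not tested as a binding site.

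KRT16, a keratin of wound edges and activated keratinocytes, was also called lower. It lay at 6.76, 6.49 and 6.54 in MCF10A-SNAI1 cells, against 8.56, 8.52 and 8.58 in MCF10A cells. The lines stood far apart relative to either spread, by 3.89-fold (limma log2 fold change -1.96 ± 0.085 (SE), adjusted p = 8.51e-06). Its usual type II partners KRT6A, KRT6B and KRT6C were not analysed here. KRT16 has near-identical pseudogene copies, and what share of the signal comes from these was not tested.

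KRT34, a type I keratin of the hair shaft cortex, was the single keratin called higher. It lay at 8.97, 9.15 and 8.87 in MCF10A-SNAI1 cells, against 4.29, 5.15 and 5.03 in MCF10A cells. The MCF10A values were more spread than those of other called keratins (SD 0.46, n = 3 arrays), and all of them were under the median of all values. The log2 fold change was 4.17 (95% interval 3.65 to 4.69, adjusted p = 2.11e-05 from limma). Without MCF10A replicate 1, which had the lowest value, it was 3.90. Where the MCF10A level is background, the fold is a minimum.

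The other 13 hair keratins analysed were not called, beside 2.54% of all genes called lower and 3.1% higher. Their log2 fold changes ran from -0.29 to 0.27. KRT33B and KRT31, the neighbours of KRT34 in the chromosome 17 row, were among them. KRT33B lay at 6.76, 6.53 and 6.36 in MCF10A-SNAI1 cells, against 6.34, 6.58 and 5.90 in MCF10A cells (log2 fold change 0.27, adjusted p = 0.381 from limma). KRT31 lay at 5.50, 5.81 and 5.71 in MCF10A-SNAI1 cells, against 5.60, 5.50 and 5.50 in MCF10A cells (log2 fold change 0.14, adjusted p = 0.366). In both genes the lines overlapped.

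The start regions of these neighbours are set side by side because the genes are close relatives and 1 of the 4 rose. Each line gives the 60 bases before the start on the minus strand of chromosome 17 (GRCh38.p14), with the core promoter motif TATAAA in capitals. The windows are chr17:41382307-41382366 for KRT34, chr17:41350829-41350888 for KRT33A, chr17:41369814-41369873 for KRT33B and chr17:41397609-41397668 for KRT31.
KRT34: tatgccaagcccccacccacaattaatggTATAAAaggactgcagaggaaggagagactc
KRT33A: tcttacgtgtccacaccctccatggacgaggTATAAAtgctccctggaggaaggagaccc
KRT33B: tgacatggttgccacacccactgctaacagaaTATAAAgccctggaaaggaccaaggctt
KRT31: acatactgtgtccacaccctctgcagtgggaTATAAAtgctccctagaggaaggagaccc
The motif began 31 bases before the start in KRT34 and 28 or 29 bases before it in the other genes. TATAAA, on either strand and at any place in the window, was in 19 of the 34 windows of keratins and VIM (55.9%). It was in 12% of all promoters. Some matches lay far from the usual place, as at -228 from the start in KRT84 and -85 in KRT39. KRT5, KRT8 and VIM had no exact match. Similar stretches, such as the one near the end of the KRT5 bases above, were not counted. TGANTCA, the site of AP-1 factors, was in none of the 34 windows and in 7.75% of all promoters.

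None of the 5 keratins of simple epithelia was called, a short list beside the 2.54% of all genes called lower and 3.1% higher. KRT7, a type II keratin of glandular epithelia, lay at 12.08, 12.14 and 12.11 in MCF10A-SNAI1 cells, against 11.97, 12.10 and 12.03 in MCF10A cells. The arrays overlapped, and the log2 fold change was 0.078 (95% interval -0.069 to 0.23, adjusted p = 0.474 from limma). KRT19, its common type I partner, differed by -0.19 on the log2 scale (95% interval -0.51 to 0.13, adjusted p = 0.420 from limma), with 6.14, 5.60 and 5.86 in MCF10A-SNAI1 cells, against 5.95, 6.10 and 6.12 in MCF10A cells. KRT20, a keratin of gut and urothelium, lay near 5.0 in both lines (log2 fold change -0.024, adjusted p = 0.909).

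KRT8 and KRT18, the luminal pair, passed the adjusted p but not the fold threshold, and in opposite directions. KRT8 lay at 12.08, 12.10 and 12.03 in MCF10A-SNAI1 cells, against 11.05, 11.18 and 11.12 in MCF10A cells. All arrays of MCF10A-SNAI1 cells were higher, by 1.93-fold (log2 fold change 0.95, 95% interval 0.80 to 1.10, adjusted p = 6.22e-05 from limma), so the interval held the 2-fold limit. KRT18 lay at 11.14, 11.14 and 11.17 in MCF10A-SNAI1 cells, against 11.95, 11.69 and 11.77 in MCF10A cells. All arrays of MCF10A-SNAI1 cells were lower, by 1.57-fold (log2 fold change -0.65, adjusted p = 0.0011 from limma). A dimmer probe set that is also annotated with KRT18 alone gave -0.99 (adjusted p = 1.65e-04 from limma), just under 2-fold. Whether it reads KRT18 itself or a related sequence was not tested.

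KRT80, a type II keratin of many epithelia that sits at the other end of the chromosome 12 row, was the only further keratin past the adjusted p, and only just. It lay at 6.47, 6.35 and 6.59 in MCF10A-SNAI1 cells, against 5.91, 5.50 and 5.97 in MCF10A cells. The arrays did not overlap, and the difference was 1.60-fold (log2 fold change 0.68, 95% interval 0.36 to 1.00, adjusted p = 0.0098 from limma). The adjusted p was 0.0113 to 0.0373 when any 1 array was left out and 0.0634 with the methods' t-test, so KRT80 did not pass under these. At an adjusted p below 0.01 with no fold threshold, 5 keratins were lower and 3 higher, beside 11.2% of all genes lower and 12.1% higher.

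VIM was bright and nearly equal in both lines. It lay at 11.63, 11.70 and 11.69 in MCF10A-SNAI1 cells, against 11.61, 11.66 and 11.57 in MCF10A cells. The ranges overlapped, and the level lay above that of 97.8% of probe sets in MCF10A-SNAI1 cells and of 97.7% in MCF10A cells. The log2 fold change was 0.058 (95% interval -0.084 to 0.20, standard error 0.060, adjusted p = 0.601 from limma), so the upper bound of the interval stood far under a 2-fold rise. Over each array left out in turn it was 0.035 to 0.083.

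**Figure D2:**
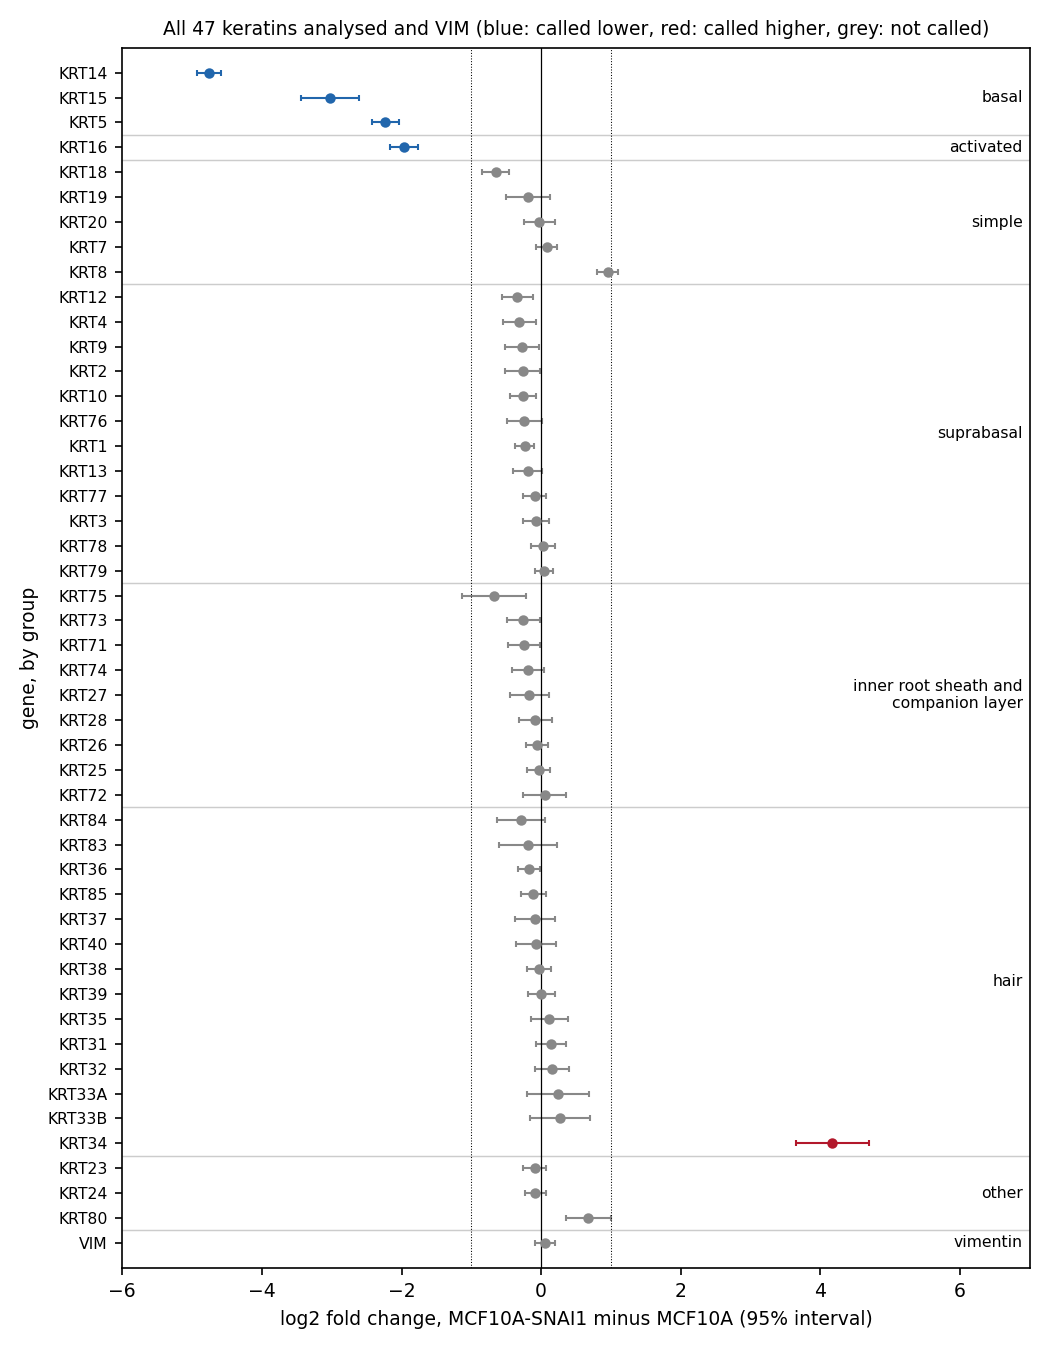
Log2 fold change (MCF10A-SNAI1 minus MCF10A) with its 95% interval from limma for each of 47 keratins and VIM, by group. Dotted lines mark 2-fold. KRT14, KRT15, KRT5 and KRT16 (blue) stand to the left, KRT34 (red) to the right at 4.17, and all other genes between -0.67 and 0.95.

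The balance of partner chains was compared within each array. The log2 value of the type II gene was subtracted from that of its type I partner on each array, for 5 of 6 listed pairs, since KRT6A was not analysed here. The size of such a difference depends on the probes, and only its shift between the lines was compared. KRT14 minus KRT5 was -3.25, -3.45 and -3.25 in MCF10A-SNAI1 cells, against -0.62, -0.82 and -0.92 in MCF10A cells. The shift was -2.53, or 5.77-fold (exact two-sided permutation p = 0.1). KRT18 minus KRT8 was -0.93, -0.96 and -0.86 in MCF10A-SNAI1 cells, against 0.90, 0.50 and 0.65 in MCF10A cells, a shift of -1.60 (exact permutation p = 0.1), or 3.04-fold. In both pairs the arrays of the lines did not overlap, and 0.1 is the smallest p that 3 arrays against 3 allow (0.25 after adjustment over the 5 pairs).

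The other 3 pairs overlapped between the lines. KRT19 minus KRT7 shifted by -0.27 (exact permutation p = 0.3), KRT10 minus KRT1 by -0.023 (p = 1, exact permutation) and KRT13 minus KRT4 by 0.12 (exact permutation p = 0.6). With each array left out in turn these shifts were -0.42 to -0.12 for KRT19 minus KRT7, -0.053 to 0.038 for KRT10 minus KRT1 and 0.0057 to 0.23 for KRT13 minus KRT4, so single arrays set their size, and the sign for KRT10 minus KRT1. KRT1 with KRT10 and KRT4 with KRT13 are the pairs of suprabasal skin and of mucosa.

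**Figure D3:**
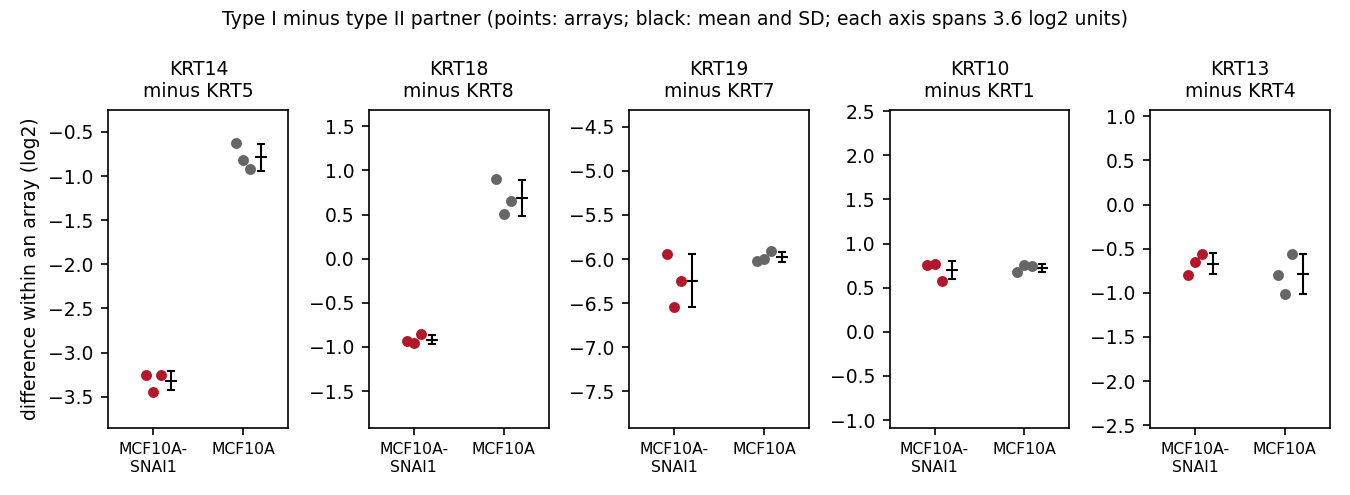
Difference in log2 value between a type I keratin and its type II partner on each array, for MCF10A-SNAI1 (red) and MCF10A (grey), with mean and SD in black. All panels span the same 3.6 log2 units. KRT14 minus KRT5 and KRT18 minus KRT8 lie lower in MCF10A-SNAI1 cells, with shifts of -2.53 and -1.60, and the other pairs overlap.

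None of the 12 suprabasal keratins was called, beside 2.54% of all genes called lower and 3.1% higher. Of the 12, 10 lay under the median of all values in both lines. The log2 fold changes of the 12 ran from -0.34 for KRT12, a keratin of cornea, to 0.044 for KRT79. The smallest adjusted p was 0.0234 from limma, for KRT1. KRT1, which marks cells that leave the basal layer of skin, lay at 4.83, 4.83 and 4.79 in MCF10A-SNAI1 cells, against 5.09, 5.06 and 5.01 in MCF10A cells. Its partner KRT10 was at -0.26 (adjusted p = 0.0565 from limma), KRT4 at -0.31 (adjusted p = 0.0711) and KRT13 at -0.19 (adjusted p = 0.182). KRT2 and KRT9, of upper epidermis and of palm and sole skin, were at -0.26 and -0.27 (adjusted p = 0.139 and 0.109).

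Beside 2.54% of all genes called lower and 3.1% higher, none of the 9 keratins of the inner root sheath and companion layer was called. KRT75, a companion layer keratin, had the lowest of them at -0.67 (95% interval -1.13 to -0.21, adjusted p = 0.0455 from limma), with 4.39, 4.89 and 4.66 in MCF10A-SNAI1 cells, against 5.15, 5.10 and 5.72 in MCF10A cells. The rest lay between -0.25 and 0.051. KRT23 and KRT24 were at -0.092 and -0.082. Small negative values were common among these dim genes. Of the 30 keratins under the median in both lines, 23 had a log2 fold change below 0, beside 52.6% of all genes, bright ones included. The share among all dim genes was not counted, so whether keratins differ from these was not tested. In 15 of the 47 keratins all MCF10A-SNAI1 arrays lay under all MCF10A arrays, and in 3 above them, beside 24.6% and 23.7% of all genes.

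Along the chromosomes the called keratins did not form 1 block. KRT14 and KRT16 stood side by side at the end of the analysed chromosome 17 row, while KRT15 was separated from them by KRT19 and KRT9, which were not called. KRT9 had a log2 fold change of -0.27 and KRT19 one of -0.19, between KRT15 at -3.03 and KRT14 at -4.76. On chromosome 12, KRT5 stood between KRT75 at -0.67 and KRT71 at -0.25, and the neighbours KRT8 and KRT18 differed in direction. KRT6A to KRT6C and KRT17 are missing from these rows.

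**Figure D4:**
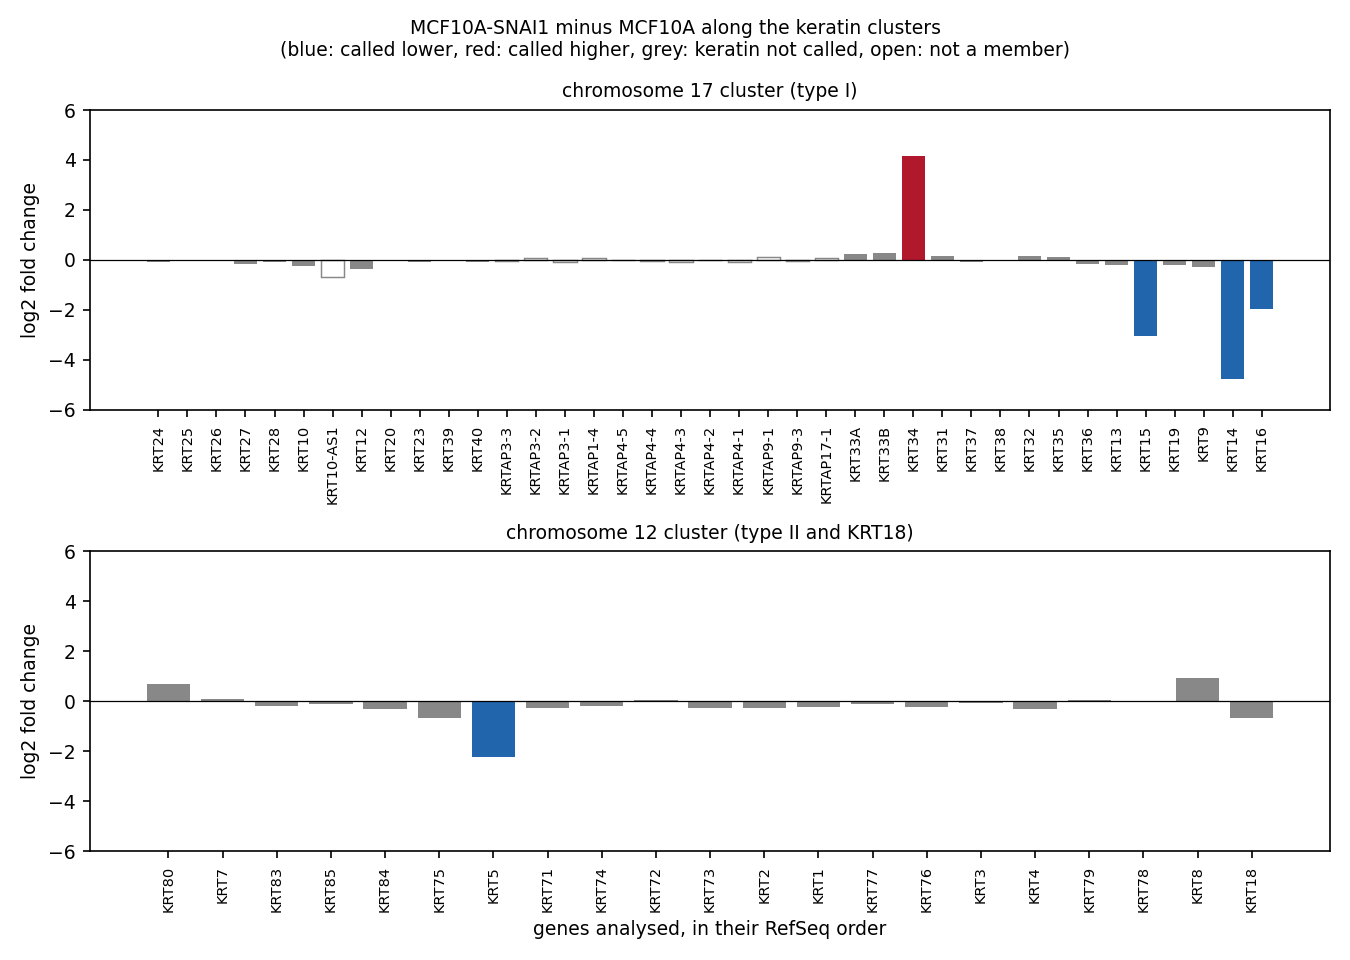
Log2 fold change (MCF10A-SNAI1 minus MCF10A) of the analysed genes in their RefSeq order along the keratin rows of chromosomes 17 and 12, not to distance. KRT34 at 4.17 and KRT15 at -3.03 stand apart from flanking genes that were not called, as does KRT5 at -2.23 on chromosome 12. KRT14 and KRT16, both called lower, stand side by side at -4.76 and -1.96.

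Of 15 other intermediate filament genes, 1 was called higher and none lower, with a median log2 fold change of 0.027. Over all genes 3.1% were called higher and 2.54% lower. SYNC, which encodes the muscle filament protein syncoilin, lay at 8.49, 8.23 and 8.48 in MCF10A-SNAI1 cells, against 6.52, 6.39 and 6.21 in MCF10A cells. The lines stood 4.08-fold apart (limma log2 fold change 2.03 ± 0.11 (SE), adjusted p = 2.17e-05). The nuclear lamin gene LMNA was higher under 2-fold at 0.54 (adjusted p = 7.41e-04), and NES, the nestin gene of progenitor cells, and DES, the desmin gene of muscle, were not called at 0.035 and 0.057 (adjusted p = 0.807 and 0.658).

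Of 17 genes listed as filament linkers, plakins and related genes, 4 were called lower and none higher, with a median of -0.087. Over all genes these shares were 2.54% and 3.1%. The list is broad, and KRTCAP2, KRTCAP3 and TRIM2 in it are neither linkers nor plakins. DSP, the desmosomal plakin that anchors keratins, lay at 5.07, 4.65 and 4.84 in MCF10A-SNAI1 cells, against 9.81, 9.96 and 9.65 in MCF10A cells (log2 fold change -4.95, adjusted p = 8.61e-07 from limma). JUP, the gene for plakoglobin, lay at 7.55, 7.40 and 7.41 in MCF10A-SNAI1 cells, against 10.31, 10.24 and 10.15 in MCF10A cells (log2 fold change -2.78, adjusted p = 1.04e-06 from limma). Both were thus lowered on every array, and the fold of DSP is a minimum where its MCF10A-SNAI1 level is background. FAM83H, which recruits casein kinase 1 to keratin filaments, and PKP3, a desmosomal plakophilin, were called lower at -1.46 and -1.36. Under 2-fold but past the adjusted p, PKP2, EVPL and PLEC were lower at -0.97, -0.70 and -0.67, and DST, TRIM2 and KRTCAP2 higher at 0.82, 0.66 and 0.53. DST encodes the hemidesmosomal plakin BPAG1 in 1 of its forms and PLEC encodes plectin.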

How the data were processed

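The authors hybridized total RNA to Affymetrix HuGene-1_0-st-v1 arrays and deposited log2 values of 33297 probe sets. Per the methods, raw data were normalized by GC RMA with GeneSpring software. GCOS, MAS5 and version 1.1 of Affymetrix Expression Console appear in the submitters' processing notes, and no source used here says which program wrote the table. The table holds no detection calls. Deposited values were used unchanged and tested with limma 3.58.1 in R 4.3.3 (lmFit and eBayes, 3 arrays per line). Adjustment ran over all probe sets.

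Of these, 19460 had 1 symbol, 1754 several and 12083 none in the platform annotation. The brightest probe set over the 6 arrays was taken per gene, which gave 18417 genes, 18392 of them found in RefSeq (GRCh38.p14). Promoter sequences are from RefSeq with the same build.

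The members and lists were chosen with earlier results of these data known. Named were VIM, called keratins, classical keratins and those past the adjusted p, KRT75 and the neighbours of KRT34 being chosen after their values were seen, and called members of the other lists. Genes under 2-fold in those lists, with NES and DES, were also chosen after their values were seen. The fit was tested on simulated data. Alternatives were 2 normalizations, a replicate block, each array left out, 2 filters, 2 variance priors, the methods' t-test, no fold threshold and averaged probe sets.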

Additional observations from a re-analysis of the deposited data

How the results depend on the processing

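The 4 keratins called lower and the 1 called higher had the same counts under quantile normalization, median centring, both dim probe filters, either variance prior, the methods' t-test, averaged probe sets and each array left out (4 to 4 and 1 to 1). With no fold threshold, 3 keratins were higher, and KRT8 (0.95), KRT18 (-0.65) and KRT80 (0.68) passed. VIM was not called under any of these. With the replicate number as a block the counts were 4 and 1 and VIM lay at 0.058. The titles share numbers only. Deviations of same-numbered arrays correlated at 0.12, 0.12 and -0.0062, and 4 of 6 arrays correlated best with their own number. KRT80 missed the adjusted p with any 1 array left out (0.0113 to 0.0373) and under the methods' t-test (0.0634), where KRT18 also missed it (0.0109) and KRT1 passed (0.0094), all under 2-fold. KRT20 lay between -0.10 and 0.062 over the arrays left out, and was above 0 without MCF10A replicate 2. KRT10 minus KRT1 was above 0 without MCF10A-SNAI1 replicate 3 (0.038). KRT13 minus KRT4 was 0.0057 without MCF10A replicate 2 and 0.23 without MCF10A replicate 3, and KRT19 minus KRT7 was -0.42 without MCF10A-SNAI1 replicate 1 and -0.12 without MCF10A-SNAI1 replicate 2. KRT18 minus KRT8 shifted by -1.77 with averaged probe sets, which brings in the dimmer probe set annotated with KRT18. Levels under the median of all values have no detection call, and the background correction was not varied.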

Other observations

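Keratin-associated proteins, which cross-link hair keratins, lie in the middle of the chromosome 17 keratin row. The 12 of these genes analysed there had log2 fold changes from -0.091 to 0.12 (smallest adjusted p = 0.394 from limma). None was called, beside 2.54% of all genes called lower and 3.1% higher. These 12 genes were looked at after the value of KRT34 had been seen.

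Some probe sets carry a keratin symbol together with others and entered no comparison. The probe set annotated jointly with KRT16 and its pseudogenes averaged 6.49 in MCF10A-SNAI1 cells and 7.87 in MCF10A cells (log2 fold change -1.37, adjusted p = 8.72e-04 from limma). The probe set annotated jointly with KRT18 and a microRNA averaged 11.31 in MCF10A-SNAI1 cells and 12.29 in MCF10A cells (log2 fold change -0.98, adjusted p = 4.96e-05 from limma). KRT39 and KRT40 each had a second probe set with values identical to the one used.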
